A study of Homo sapiens with 6 samples.

Results

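The genes of heme synthesis described here are ALAS1, ALAS2, ALAD, UROS, UROD, CPOX, PPOX and FECH, which encode enzymes of the pathway, and SLC25A38, which encodes its glycine carrier. They were chosen by name, and all 9 were found among the 31999 genes of the deposited table. The enzyme that acts between ALAD and UROS was not among the genes chosen and is not analysed here. The study transduced HEL, a human erythroleukemia cell line, with a lentiviral small hairpin RNA against TMIGD2 (shTMIGD2, 3 libraries) or with a non-targeting control hairpin (shCtrl, 3 libraries). All cells were selected with puromycin and grown in RPMI with serum, and the libraries were made from poly(A) RNA with a directional kit. The labels call the libraries biological replicates of each group, and both groups come from the same cell line. The labels name the hairpin only by its target, so which of the study's hairpins against TMIGD2 was used is not given there.

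The only measurement used was the authors' log2 CPM, a level per gene, as its share of all counts, on the log2 scale. Its column names no sample and was read as the mean over the 6 libraries of both groups together. Whether the mean was taken before or after the logarithm is not given there. The other 4 columns of values are the authors' own comparison of shTMIGD2 with shCtrl and were not used. No value per library or per group was at hand, so neither the spread between libraries nor the effect of the hairpin on the heme synthesis genes was measured here. The number of counted fragments per library is unknown from the table. Converted to linear CPM, the levels summed to 1002514 over all genes, and the lowest level listed was 0.0736 CPM, which includes whatever prior count the authors added before taking logarithms. TMIGD2 itself had a mean of 16.9 CPM over both groups, a value that cannot check the knockdown.

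Heme is made partly in mitochondria and partly in the cytosol. Glycine and succinyl-CoA are joined in the mitochondrial matrix by 5-aminolevulinate synthase, the rate-limiting enzyme, which exists as a housekeeping form (ALAS1) and an erythroid form (ALAS2). The product is turned into porphyrin rings by cytosolic enzymes, trimmed and oxidized back in the mitochondrion, and finally loaded with iron by ferrochelatase. Developing red cells make heme in large amounts for hemoglobin, and the transcription factor GATA1 drives several genes of the route there, while the translation of ALAS2 mRNA is held back through an iron-responsive element, a hairpin near its start that binds iron regulatory proteins when iron is scarce.

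Letters that these regulators are known to read were searched in RefSeq promoter windows (GRCh38.p14), which run from 250 bases before to 50 bases after an annotated start. Windows were at hand for 8 of the 9 genes, with 2 windows each for ALAD and PPOX, and UROS had none. The stretches that hold the GATA factor letters AGATAA, on either strand, are shown because ALAS2 is the gene that marks the erythroid route, together with the stretch of ALAS2 that holds the loop letters CAGTG of an iron-responsive element. Each line is read 5′ to 3′ on the strand of the gene, and capitals mark the letters searched, which appear as TTATCT where the match lies on the opposite strand.
ALAS2, chrX:55031087-55031116, minus strand, upstream: ctactttgggttTTATCTctagcaaggaag
CPOX, chr3:98593801-98593830, minus strand, farther upstream: agaaagcctcttTTATCTctcccgtccctt
CPOX, chr3:98593719-98593748, minus strand, nearer the start: cgcgtcggattcTTATCTcccgccccgcgc
PPOX, chr1:161166571-161166600, plus strand, upstream: agggtgtggcccTTATCTgcacccagcaga
ALAS2, chrX:55030941-55030969, minus strand, after the start: ttcgttcgtcctCAGTGcagggcaacagg

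AGATAA was found in the windows of 3 of the 8 genes, ALAS2, CPOX and PPOX, and in 10.3% of all 35116 windows. Here and below, counts are per gene and shares per window, and the 2 windows of ALAD and PPOX gave them more room for a match. In ALAS2 the match began 127 bases before the start. In CPOX there were 2 matches, beginning 207 and 125 bases before it, and in the second window of PPOX the match began 63 bases before its start. The other 5 genes with a window, ALAS1, ALAD, UROD, FECH and SLC25A38, had no match, which says only that these letters are not in these windows. CAGTG, searched on the gene strand in the 50 bases after the start, was found in ALAS2 alone among the 8 genes, beginning at base 21 after the start, and in 6.48% of all windows.

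The other letters searched were found in a larger share of all windows. CACCC, read by KLF factors, was found on either strand in 7 of the 8 genes and in 59.9% of all windows, with FECH as the gene without it. GGGCGG, read by the SP1 family, was found in 6 of the 8 genes and in 45% of all windows, and was missing from ALAS2 and SLC25A38. The E-box CANNTG was found in 7 of the 8 genes and in 68.7% of all windows, with CPOX as the gene without it. A match is a run of letters, and no binding was measured.

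**Figure D1:**
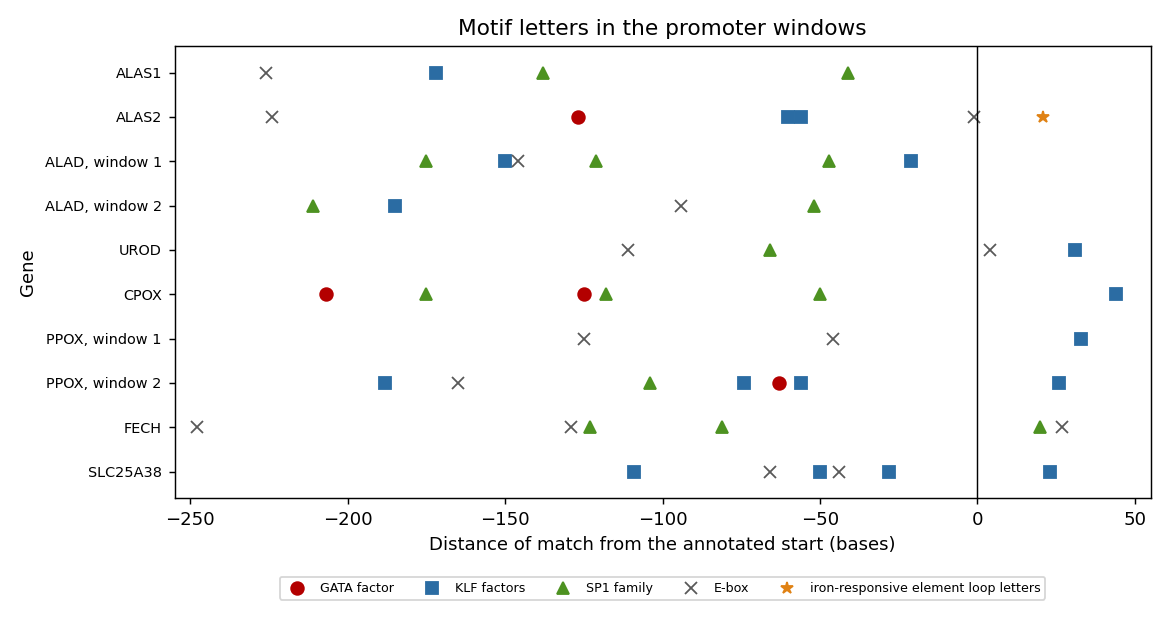
Matches to 5 motifs in the promoter windows of 8 heme synthesis genes, by distance in bases from the annotated start (x axis) and by gene or window (y axis); each symbol is a match and the vertical line is the start. Matches to the GATA letters lie upstream in ALAS2, CPOX and the second PPOX window, and the iron-responsive element loop letters lie after the start of ALAS2.

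All 9 genes were expressed in HEL cells. At a threshold of 1 CPM, 9 of the 9 genes were detected, against 43.8% of all genes listed and 69.1% of the protein-coding genes. At 10 CPM it was 9 of 9, against 28.7% and 52.6%, and at 50 CPM 7 of 9, against 14.2% and 26.8%. The genes below 50 CPM were ALAD and PPOX. The median level was 6.45 on the log2 CPM scale, against -0.97 over all genes listed and 3.64 over the 16341 genes annotated as protein coding. Together the 9 genes summed to 1147 CPM, 0.114% of the total, and UROD made up 41.1% of their sum.

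**Figure D2:**
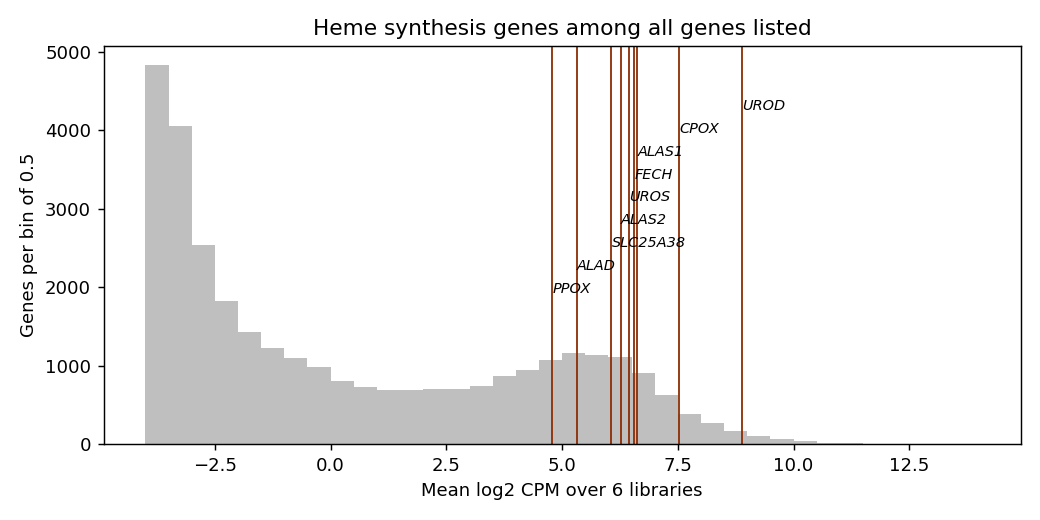
Number of genes (y axis, bins of 0.5) by mean log2 CPM over the 6 libraries (x axis) for all 31999 genes, with a line at the level of each heme synthesis gene. The lines run from 4.79 for PPOX to 8.88 for UROD. Many of the genes listed lie below 0. Among genes at 0 or more, PPOX was above 53.8%, ALAD above 62.2% and UROD above 97.9%.

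Aminolevulinate synthase, the entry to the pathway, was represented by both of its forms, whose levels per kb had a ratio near 1. ALAS1 (chromosome 3, 52198086 to 52214327, plus strand, GENCODE 44 on GRCh38) had a mean log2 CPM of 6.63, or 98.7 CPM, above 92.5% of all genes listed. ALAS2 (chromosome X, 55009055 to 55030977, minus strand) had a mean log2 CPM of 6.26, or 76.8 CPM, above 90.3% of all genes. Divided by the length of the longest annotated transcript, the scale used below wherever genes are compared with each other, the levels were 40.6 CPM per kb for ALAS1 and 39.6 CPM per kb for ALAS2. ALAS2 thus made up 49.3% of the summed per-kb level of both forms. The ratio of ALAS1 to ALAS2 was 1.03 by the longest transcript, 1.05 by the canonical transcript and 1.18 by the coding sequence. With no spread between libraries, it was not tested whether the forms differed. No 50-base word was shared between the annotated transcripts of any of the 36 pairs of genes. A read of that length matching a transcript of any of the 9 genes exactly thus cannot come from an annotated transcript of another. Sequence shared with genes outside the 9, such as the processed pseudogene FECHP1, was not checked. FECHP1 had no listed level.

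SLC25A38, the inner membrane carrier that brings glycine to the synthase, lies on chromosome 3 (39383370 to 39397351, plus strand). Its mean log2 CPM was 6.07, or 67.0 CPM, and its level of 31.9 CPM per kb was 0.785 times that of ALAS1 and 0.806 times that of ALAS2. By coding length it was 1.43 times that of ALAS1 and 1.69 times that of ALAS2, so the direction depended on the length used. A processed pseudogene, SLC25A38P1, was listed at 0.39 CPM.

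The cytosolic enzymes spanned most of the range of the pathway. ALAD (chromosome 9, 113386312 to 113401290, minus strand), aminolevulinate dehydratase, joins pairs of aminolevulinate molecules and is an enzyme inhibited by lead, as is ferrochelatase. It had a mean log2 CPM of 5.32, or 39.8 CPM, and 12.3 CPM per kb, near the low end of the 9 genes. UROS (chromosome 10, 125784980 to 125823258, minus strand), uroporphyrinogen III synthase, closes the ring in the isomer used for heme. Its mean log2 CPM was 6.45, or 87.3 CPM, with 25.3 CPM per kb by the longest transcript and 65.4 by the canonical transcript, because these are 3447 and 1336 bases long.

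UROD (chromosome 1, 45010950 to 45015575, plus strand), uroporphyrinogen decarboxylase, had the highest level of the 9 genes. Its mean log2 CPM of 8.88, or 471.5 CPM, ranked 294 from the top of all 31999 genes. Per kb of the longest transcript it reached 220.5 CPM. UROD was 8.71 times UROS, the enzyme before it, by the longest transcript, 6.05 times by the canonical transcript and 4.30 times by coding length. Against CPOX, the enzyme after it, the ratios in the same order were 3.24, 5.81 and 3.16. UROD was also the highest of the 9 by canonical transcript and by coding length, at 395.2 and 428.2 CPM per kb. It shares 375 exon bases, of 4029 in all its annotated transcripts, with HECTD3, which lies on the opposite strand and had 74.5 CPM.

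Of the mitochondrial enzymes that act after UROD, CPOX had the highest level by each length used. CPOX (chromosome 3, 98579446 to 98593648, minus strand), coproporphyrinogen oxidase of the intermembrane space, had a mean log2 CPM of 7.53, or 184.3 CPM, and 68.0 CPM per kb, second to UROD by every length used. It shares 163 of its 3157 annotated exon bases with an unnamed protein-coding gene model on the same strand. PPOX (chromosome 1, 161166056 to 161178013, plus strand), protoporphyrinogen oxidase, had the lowest mean log2 CPM of the 9 genes, 4.79, or 27.7 CPM, above 79.8% of all genes listed. At 11.2 CPM per kb it was also the lowest by the longest transcript and by coding length, and CPOX was 6.08 times higher. PPOX shares 1118 of its 4725 annotated exon bases with B4GALT3 on the opposite strand, which had 56.7 CPM. The kit kept the strand, but whether the authors counted by strand is not given in the sources used here, so the low value of PPOX carries this uncertainty.

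FECH (chromosome 18, 57544377 to 57586732, minus strand), ferrochelatase, inserts iron into protoporphyrin. It had a mean log2 CPM of 6.56, or 94.2 CPM, the fourth highest of the 9 genes without regard to length. Its longest transcript has 7695 bases, against a coding length of 1287, and its level was 12.2 CPM per kb by the longest transcript and 73.2 CPM per kb by coding length. FECH therefore moved from position 8 of the 9 genes by longest transcript to position 5 by coding length and position 9 by canonical transcript. FECH was 1.09 times PPOX by the longest transcript, 0.768 times by the canonical transcript and 3.79 times by coding length, so no order of these last enzymes can be read.

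**Figure D3:**
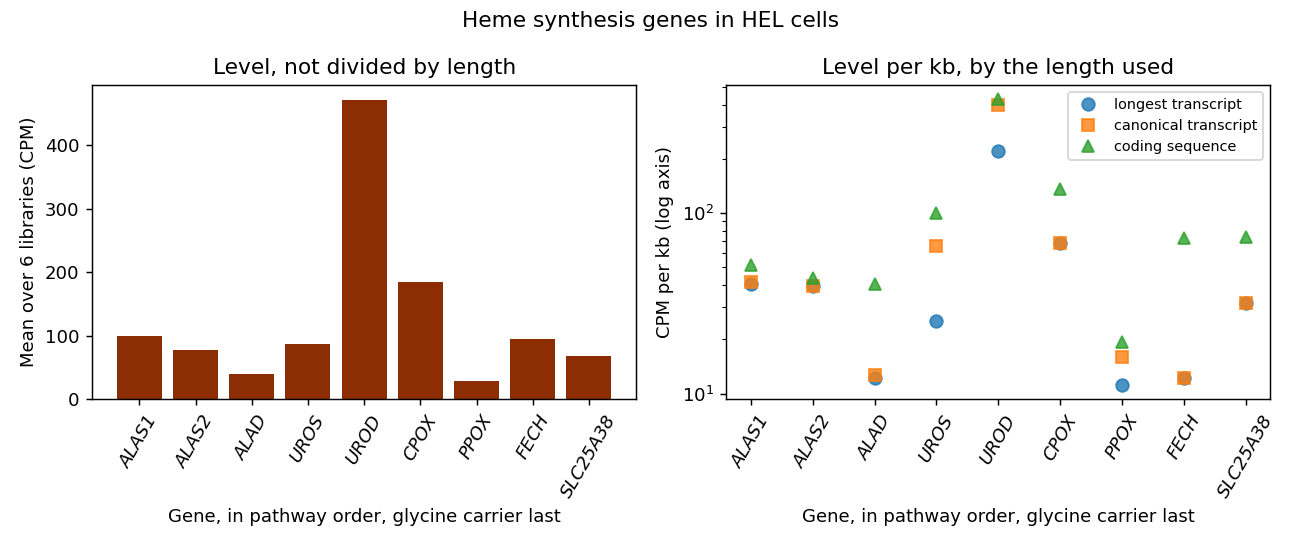
Mean level of each heme synthesis gene over the 6 libraries, in pathway order with the glycine carrier last; left, CPM; right, CPM per kb on a log axis with 3 choices of length. UROD is highest in both panels and CPOX second, while the place of every other gene shifts with the length used. No error bars are drawn because no value per library was at hand.

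Across the pathway, the per-kb level of the highest gene was 19.7 times that of the lowest by longest transcript, 32.2 times by canonical transcript and 22.2 times by coding length. The median of the 9 genes was 31.9 CPM per kb, against 8.36 over the protein-coding genes with a mean log2 CPM of at least 0. Of the 9 genes, 4 lay within a factor of 2 of their own median of 31.9 CPM per kb. The order by longest transcript was UROD, CPOX, ALAS1, ALAS2, SLC25A38, UROS, ALAD, FECH and PPOX, and since each level is a single mean, the spread that would separate neighbours in this order is not known.

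Genes that supply or handle the pathway's substrates and products were read on the same scale. Of the protein-coding genes, 69.1% had at least 1 CPM and 52.6% at least 10 CPM. The median of those with a mean log2 CPM of at least 0 was 8.36 CPM per kb. Of 19 genes for mitochondrial iron and porphyrin partners, 18 had at least 1 CPM and 17 at least 10 CPM, with a median of 22.5 CPM per kb. The highest by CPM per kb was TMEM14C, a porphyrin transporter of the inner membrane, at 100.6. Next was SLC25A37, the mitoferrin that imports iron in erythroid cells, at 72.0. The lowest were ABCB6 at 0.696 and FDX2 at 0.167. FDX2 had 0.169 CPM, against a lowest level listed of 0.0736 CPM. Overlap with other genes was checked only for the 9 heme synthesis genes, so how far counting affects the FDX2 value is not known. For glycine and succinyl-CoA supply, 9 of 9 genes had at least 1 CPM, with a median of 30.0 CPM per kb. SHMT2, which makes glycine in the mitochondrion, was highest at 90.6 CPM per kb, followed by SUCLG1, a subunit of succinyl-CoA synthetase, at 55.2. The lowest were SHMT1, its cytosolic counterpart, at 12.4, and SLC6A9, a plasma membrane glycine transporter, at 2.60.

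Of the 12 genes fixed for heme transport, breakdown and sensing, 11 had a value, all at 1 CPM or more. Of the protein-coding genes, 69.1% reached 1 CPM. The median of the 11 genes was 10.9 CPM per kb, near the 8.36 of protein-coding genes with a mean log2 CPM of at least 0. BLVRB and BLVRA, the biliverdin reductases, were highest at 133.2 and 65.6 CPM per kb. FLVCR1, a heme exporter, was at 3.63 and ABCG2, a transporter of porphyrins, was lowest at 0.573. HMOX1, the inducible heme oxygenase, had 3.97 CPM per kb and HMOX2, the constitutive form, 10.9.

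The labelled cell type was checked against fixed markers. Of 18 erythroid markers, 16 had at least 1 CPM, against 69.1% of the protein-coding genes, with a median of 57.0 CPM per kb. The alpha globin gene HBA1 reached 1317 CPM per kb, the fetal globin gene HBG1 577.6 and GATA1 164.0. HBA2 had 1132 CPM per kb and HBG2 219.7. The globin genes HBB, HBZ and HBE1 had 29.6, 6.88 and 5.27. Sequence shared between globin genes was not checked, so reads may not be assigned to the right gene among them. AHSP, the chaperone of alpha globin, at 0.11 CPM, and SLC4A1, the band 3 anion exchanger, at 0.878 CPM, were the erythroid markers below 1 CPM. Of 10 megakaryocyte markers, 9 had at least 1 CPM, with a median of 25.0 CPM per kb. None of 5 liver markers reached 1 CPM. Of the monocyte and granulocyte markers 1 of 6 did, of the T cell markers 1 of the 3 with a value, and of the B cell markers 2 of the 3 with a value. In bulk RNA, fewer cells expressing a gene and less RNA per cell cannot be told apart.

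**Figure D4:**
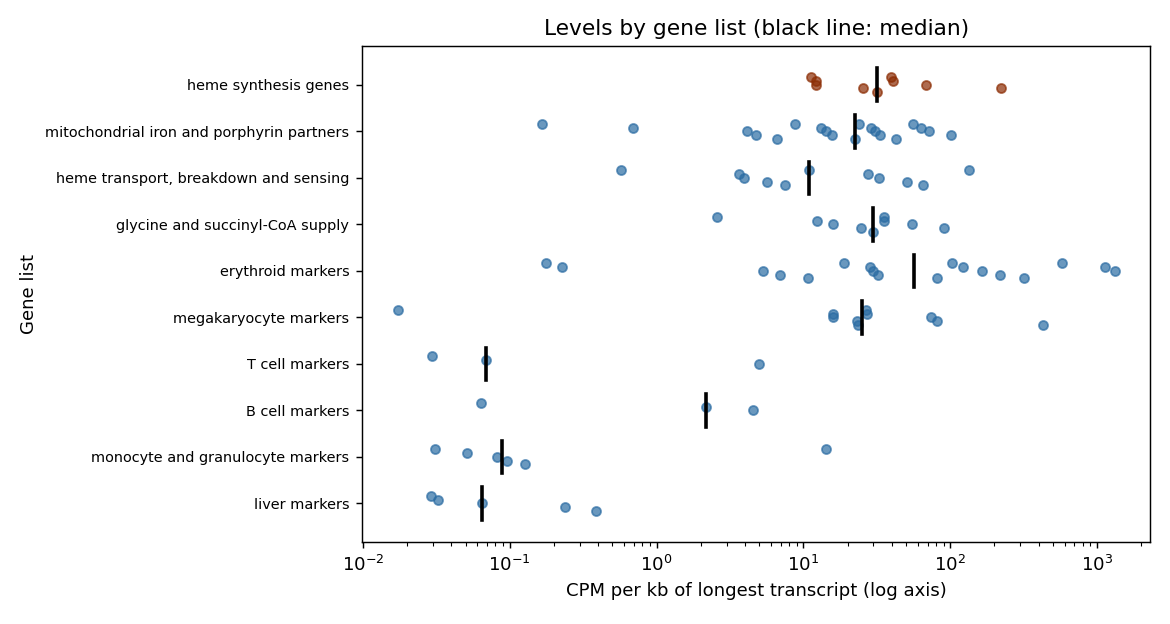
Levels in CPM per kb of longest transcript (x axis, log scale) for the genes of each list (y axis); each point is a gene and the black line is the median of the list. The 9 heme synthesis genes lie between 11.2 and 220.5, and all liver markers lie below 1. The erythroid markers spread from 0.177 to 1317 and the megakaryocyte markers from 0.0173 to 428.3. On this scale the monocyte marker LYZ, at 14.2, lies above ALAD, FECH and PPOX. Not divided by length, LYZ had 21.2 CPM, below all 9 genes, the lowest being PPOX at 27.7 CPM.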

How the data were processed

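RNA of 3 shCtrl and 3 shTMIGD2 HEL libraries, grouped by their titles, was aligned by the authors to hg38 with STAR (2.6.1b) and counted per gene with HTSeq (0.6.1) on a refSeq annotation. The authors' deposited table holds a log2 CPM per gene that names no sample. That level was used, read as the mean over all libraries. The deposited table also holds the authors' own comparison (fold change, F statistic, p-value and adjusted p), which was not used. The paper's methods name DESeq2 (3.11) and a filter that kept genes averaging 1 read or more in a group, whereas the table's columns carry edgeR names. Whether that filter was applied to this table, and the normalization and prior count behind it, are not given in the sources used here. Depth per library is unknown.

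Levels were converted to CPM and divided by transcript lengths from GENCODE 44 (GRCh38). Of the gene names, 22987 matched by current or older symbol. Names without a match had no length or gene type, so they are not in the protein-coding or per-kb values. A percentile is the share of genes with a lower level. Promoter windows are from RefSeq (GRCh38.p14). Of the 10 windows, 9 had bases after the start that occur in a GENCODE transcript of the gene, which checked their strand. Genes and lists were chosen with earlier results of these data known. Of each heme-related list, the highest and the lowest pair were named, and HMOX1, HMOX2, and the markers named were picked after their values were seen. Motif searches and percentiles were tested on simulated data. Python 3.11.15 was used with pandas 2.3.3. No test between groups was run.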

Additional observations from a re-analysis of the deposited data

How the results depend on the processing

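The median percentile of the 9 heme synthesis genes was 91.5 among all genes listed. It was 80.5 when only genes at 1 CPM or more were ranked. In an alternative chosen after seeing the data, it was 83.9 among protein-coding genes. Of these, 69.1% reached 1 CPM, against 43.8% of all genes listed. Subtracting the lowest CPM listed left the median percentile at 91.5. Raising the threshold to 10 CPM left all 9 genes detected. The ratio of ALAS1 to ALAS2 stayed on the same side of 1 by coding length, without division by length, after subtracting the lowest CPM and, added later, by canonical transcript, from 0.04 to 0.36 on the log2 scale. The comparison of shTMIGD2 with shCtrl, with its second count test, unfiltered fit and left-out libraries, was not run, since it needs counts per library. No paired analysis was possible because the table used has no values per library. Ranking among genes with a protein sequence, alignment of ALAS1 with ALAS2 and the search for heme regulatory dipeptides were not run, as no protein table was used here.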
